A study of Mus musculus with 8 samples.

Results

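Osteopontin (Spp1), periostin (Postn), tenascin C (Tnc), thrombospondin 1 (Thbs1), fibronectin (Fn1), osteonectin (Sparc) and TGF-beta-induced protein (Tgfbi) were taken by gene name from the deposited counts of protein-coding genes in mouse skin. All 7 genes were present among 22740 listed genes, and all 7 passed the filter on low counts that left 15163 genes for testing. The libraries came from female BALB/c mice, 6 to 8 weeks old and fed a low-fibre diet, whose dorsal skin was sequenced as bulk RNA. In this study the question was how butyrate, a short-chain fatty acid made by gut bacteria from fibre, alters skin exposed to house dust mite (HDM) allergen. There were 4 groups of 2 mice each. Baseline CTL mice drank water without butyrate and had no allergen. Baseline butyrate mice drank 400 mM sodium butyrate and had no allergen. Lesional CTL mice had 4 epicutaneous exposures to 15 µg of HDM on shaved skin over 2 weeks. Lesional butyrate mice had the same exposures and drank butyrate from 2 weeks before them. Titles of the baseline libraries start with another number than those of the lesional libraries. Each exposure was under an occlusive patch, and no group is labelled as having a patch without allergen. Effects of the allergen, of the patch and of the set of mice therefore cannot be told apart. HDM exposure below means the allergen with its patch.

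Matricellular proteins are secreted into the extracellular matrix, where they act mainly on how cells attach and signal rather than as load-bearing fibres. Most are sparse in resting adult tissue and are made in wounds, inflamed skin and remodelling matrix, and they bind integrins, CD44, CD36 or CD47 on the cell surface. Tenascin C is made by fibroblasts and keratinocytes at wound edges, osteopontin by macrophages, activated T cells and other cells, and periostin by fibroblasts that respond to interleukin 13 and TGF-beta. Fibronectin and osteonectin are in addition regular components of dermal matrix.

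Each library held between 18004136 and 21085544 counts, and 3 counts corresponded to between 0.138 and 0.169 CPM (counts scaled to library size). A library from the baseline butyrate group stood apart. In baseline butyrate mouse 3 the summed CPM of 9 hair follicle keratin genes was 12530, against 2.77 to 5.92 in the other 7 libraries, and of 14317 genes at or above 1 CPM on average, 27.1% differed by more than 2-fold between the baseline butyrate mice, against 1.80% to 5.01% in the other groups. Keratinocyte RNA was abundant in every library, with 7932 to 13550 CPM over 7 basal keratinocyte markers, as the tissue label states. Values that rest on baseline butyrate mouse 3 are given below with and without it.

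Tnc lies at chr4:63959785-64047015 on the minus strand of GRCm38 (ENSMUSG00000028364), Spp1 at chr5:104435118-104441050 on the plus strand (ENSMUSG00000029304) and Postn at chr3:54361109-54391037 on the plus strand (ENSMUSG00000027750). Thbs1 lies at chr2:118111876-118127133 (plus, ENSMUSG00000040152), Fn1 at chr1:71585520-71653200 (minus, ENSMUSG00000026193), Sparc at chr11:55394500-55423183 (minus, ENSMUSG00000018593) and Tgfbi at chr13:56609523-56639562 (plus, ENSMUSG00000035493). Exons of Spp1 share 309 bases, 18.8% of the exonic length, with a gene model on the same strand (Gm42793), so some Spp1 reads may have gone uncounted. Exons of Tnc, Thbs1 and Fn1 share 2.26% to 3.42% of their length with a gene on the opposite strand, and the deposited counts are named as reverse-stranded, while whether the library kit kept strand is not given in the sources used here.

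Upstream sequences from RefSeq (GRCm38.p6) were found for 5 of the 7 genes, and not for Thbs1 and Fn1. The sequences of Tnc and Spp1 are shown because these 2 genes rose in lesional CTL skin, and that of Postn because it holds the same short motif as Tnc but did not pass the test in any comparison. Each is the 250 bases before a transcript start, written 5′ to 3′ on the strand of the gene, at chr4:64046937-64047186 for Tnc, chr5:104434861-104435110 for Spp1 and chr3:54360857-54361106 for Postn. Capitals mark matches to TATATAA, the letters of a TATA box, or AACCACA, a Runx factor site.
Tnc: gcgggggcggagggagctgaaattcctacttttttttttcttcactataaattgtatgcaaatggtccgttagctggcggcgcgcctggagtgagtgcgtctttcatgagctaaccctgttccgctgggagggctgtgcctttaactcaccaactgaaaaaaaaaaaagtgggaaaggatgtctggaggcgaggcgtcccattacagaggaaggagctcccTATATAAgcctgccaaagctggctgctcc
Spp1: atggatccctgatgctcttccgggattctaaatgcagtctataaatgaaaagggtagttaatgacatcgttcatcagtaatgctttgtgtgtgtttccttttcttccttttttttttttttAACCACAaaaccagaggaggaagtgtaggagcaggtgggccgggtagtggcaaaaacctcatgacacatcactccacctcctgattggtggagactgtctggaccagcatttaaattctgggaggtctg
Postn: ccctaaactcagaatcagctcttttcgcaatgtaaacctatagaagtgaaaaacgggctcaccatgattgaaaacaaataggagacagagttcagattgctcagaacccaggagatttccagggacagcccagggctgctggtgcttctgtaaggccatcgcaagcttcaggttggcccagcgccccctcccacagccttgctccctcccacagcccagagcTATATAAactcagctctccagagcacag
TATATAA began 29 bases before the Tnc start used here, which lies 79 bases from the nearest GENCODE start, and 28 bases before that of Postn. The other RefSeq start of Tnc, at the annotated start of the gene, and the other start of Postn had no TATATAA in their 250 bases. In all, 3.04% of 32851 upstream sequences of the same length held it on either strand. AACCACA began 129 bases before the start of Spp1 and was held by 4.40% of those sequences. The AP-1 site TGACTCA, held by 4.46% of them on either strand, was in none of the 8 upstream sequences found for these genes. These matches describe the letters in the window and were not tested as binding sites.

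Levels of the 7 genes were compared with each other per kilobase of exon (CPM per kb), since longer transcripts give more reads. The length was that of the merged exons of all annotated transcripts, which can exceed the length of any single transcript. It was 8.7 kb over 9 transcripts for Postn and 3.77 kb over 5 for Tgfbi. The order of the genes therefore depends in part on the annotation. In baseline CTL skin Sparc stood highest with 352 ± 19.4 CPM per kb (SD, n = 2), followed by Postn with 126 ± 21.7 and Tgfbi with 104 ± 6.65 CPM per kb. Postn (111 to 142 CPM per kb) and Tgfbi (99.8 to 109 CPM per kb) did not overlap, but the gap between them was smaller than the SD of Postn. Thbs1 had 29.3 ± 7.28 and Fn1 20.7 ± 2.82 CPM per kb. Spp1 (5.09 ± 2.14 CPM per kb) and Tnc (5.05 ± 1.33 CPM per kb) were lowest, and their order was within the spread between mice. In lesional CTL skin Tnc had moved to the third place, with 105 ± 21.5 CPM per kb, a range of 89.4 to 120 that contained both Tgfbi mice (94.4 and 96.1 CPM per kb), whereas Spp1 was the lowest with 15.5 ± 1.4 CPM per kb. In lesional butyrate skin Tnc was in the fifth place with 23.3 ± 4.52 CPM per kb, within the range of Fn1 (9.18 to 35.9 CPM per kb). The genes' levels per library in CPM, from which the comparisons that follow were made, are drawn in the plot by library.

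**Figure D1:**
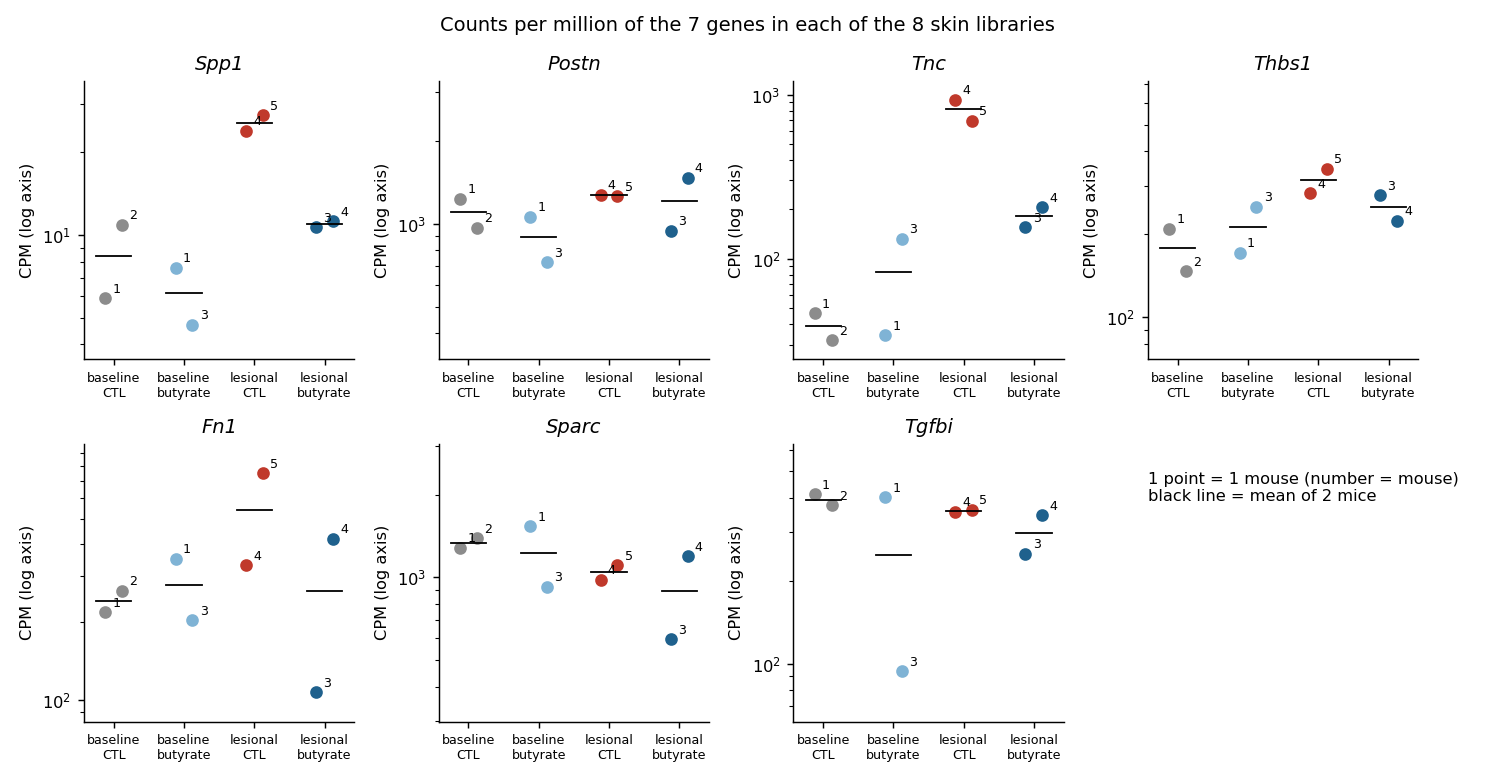
CPM of Spp1, Postn, Tnc, Thbs1, Fn1, Sparc and Tgfbi on a log axis for each of the 8 mice, in 4 groups on the horizontal axis, with the mouse number beside each point and a black line at the mean of 2 mice. Tnc and Spp1 are highest in both lesional CTL mice, while Postn, Sparc and Tgfbi differ little between groups apart from low values in baseline butyrate mouse 3 and lesional butyrate mouse 3.

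HDM exposure in CTL mice went with higher Tnc and Spp1, and these were the 2 of 7 genes that passed the test (edgeR quasi-likelihood test on all 8 libraries, called at a false discovery rate (FDR) below 0.1 and a fold-change above 2). The background was 543 of the 15163 tested genes, or 3.58%, of which 360 were higher and 183 lower. Tnc was at 46.6 and 31.9 CPM in the baseline CTL mice and at 930.5 and 694 CPM in the lesional CTL mice. Both lesional CTL mice lay far above both baseline CTL mice, and the fitted difference was 20.7-fold (log2 fold change 4.37, SE 0.68, 95% confidence interval 2.72 to 6.03, FDR = 0.0428). Spp1 was at 5.89 and 10.9 CPM in baseline CTL and at 23.9 and 27.2 CPM in lesional CTL mice. The groups did not overlap, and Spp1 rose 3.05-fold (log2 fold change 1.61, SE 0.35, interval 0.75 to 2.46, FDR = 0.087). In bulk skin, a change in the number of cells that make these transcripts and a change in RNA per cell cannot be told apart.

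Thbs1, which binds CD36 and CD47 and can activate latent TGF-beta, was at 209 and 146.5 CPM in baseline CTL and 281 and 346 CPM in lesional CTL mice. It was 1.76-fold higher, with an unadjusted p of 0.025 and an FDR of 0.194 (edgeR), and so did not pass. At an unadjusted p under 0.05 there were 3 of the 7 genes, Tnc, Spp1 and Thbs1, against 19.7% of all genes. Fn1, the integrin ligand of provisional and dermal matrix, was at 218 and 265 CPM in baseline CTL mice and at 332 and 751 CPM in lesional CTL mice. Its 2 lesional mice differed by 2.26-fold from each other, as much as the fitted 2.24-fold difference between groups (log2 fold change 1.17, SE 0.69, FDR = 0.384). The level of Fn1 rested on lesional CTL mouse 5: without it the log2 fold change was 0.46, and without lesional CTL mouse 4 it was 1.64. Fn1 was called (FDR = 0.0676) when only the baseline and lesional CTL libraries were fitted, a fit in which 12.9% of all genes were called.

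Postn, Sparc and Tgfbi did not pass the test. Postn, long used as a marker of type 2 inflammation in human airway and skin, was at 1234 and 967 CPM in baseline CTL and at 1276 and 1259 CPM in lesional CTL mice. The interval of its log2 difference was -0.54 to 0.95 and thus leaves room for a moderate change in either direction. Sparc, a collagen-binding glycoprotein, was at 1281 and 1385 CPM in baseline CTL and at 980 and 1107 CPM in lesional CTL mice (log2 fold change -0.35, interval -1.30 to 0.59). Tgfbi, named for its induction by TGF-beta, was at 412 and 376 CPM and at 356 and 362.5 CPM in the same groups (log2 fold change -0.13, interval -1.57 to 1.31). Across the 7 genes no baseline CTL mouse overlapped with a lesional CTL mouse, with 5 genes higher and 2 lower, but 75.2% of all tested genes did not overlap either.

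The calls of Tnc and Spp1 in CTL mice were also made by limma-voom, DESeq2, each normalization and each filter tried, except that Spp1 did not pass an FDR of 0.05. Without both baseline butyrate libraries edgeR called the same 2 genes, among 12.4% of all genes. Leaving out any 1 of the 6 mice other than the baseline butyrate mice ended both calls, with FDRs of 0.122 to 0.384 for Tnc and 0.186 to 0.503 for Spp1 and log2 fold changes of 4.12 to 4.67 and 1.23 to 2.12, and in these fits between 0 and 117 of all genes were called.

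**Figure D2:**
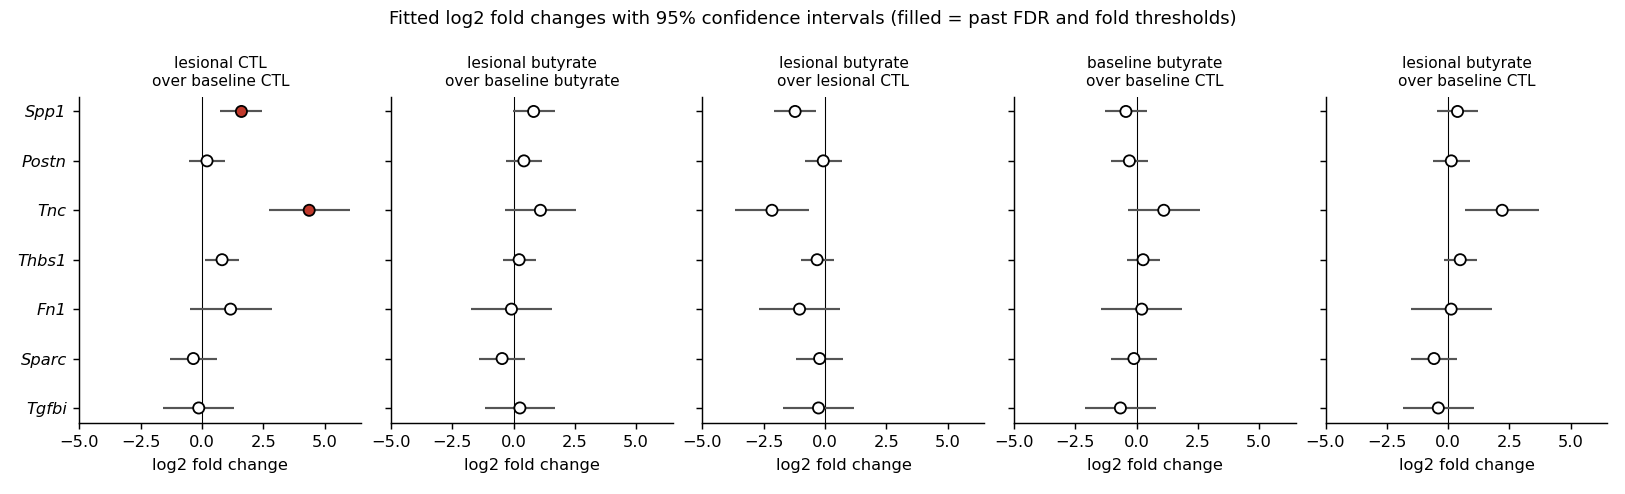
Log2 fold changes of the 7 genes (points) with 95% confidence intervals (lines) in 5 comparisons, from the edgeR fit on 8 libraries, with filled points for genes past the FDR and fold thresholds. Filled points are Tnc (4.37) and Spp1 (1.61) in lesional over baseline CTL skin; the intervals of both genes are below 0 in lesional butyrate over lesional CTL skin without passing the FDR threshold.

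Between lesional butyrate and lesional CTL skin, all 7 genes had negative log2 fold changes, with a median of -0.32 against -0.005 over all tested genes. Without lesional butyrate mouse 3 those of Postn and Sparc were 0.21 and 0.19, and that of Tgfbi was -0.05. None of the 7 was called by edgeR on 8 libraries, in which 0 of 15163 genes (0%) were called. At an unadjusted p under 0.05 there were 2 of the 7 genes, Tnc and Spp1, against 4.84% of all genes. Tnc was at 156 and 206 CPM in lesional butyrate mice, against 930.5 and 694 CPM in lesional CTL mice. The highest butyrate mouse lay well below the lowest CTL mouse, and the fitted level was 4.48-fold lower (log2 fold change -2.17, SE 0.62, interval -3.67 to -0.66, unadjusted p = 0.0121, FDR = 0.838). Spp1 was at 10.7 and 11.2 CPM in lesional butyrate mice, against 23.9 and 27.2 CPM in lesional CTL mice. The 2 groups were each tight and did not overlap, and the fitted level was 2.33-fold lower (log2 fold change -1.22, SE 0.35, interval -2.07 to -0.38, unadjusted p = 0.0119, FDR = 0.838).

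Whether Tnc was called depended on the test and on the libraries that set the spread. DESeq2 called Tnc (FDR = 0.0371) among 0.818% of all genes, while limma-voom on 8 libraries called no member. With both baseline butyrate libraries left out of the fit, edgeR called Tnc (FDR = 0.0461) among 1.25% of genes, and limma-voom called Tnc (FDR = 0.0477) and Spp1 (FDR = 0.0889) among 1.31%. Tnc was called when either baseline butyrate mouse alone was left out (log2 fold change -2.16 in both fits). It was not called when any other mouse was left out (log2 fold changes of -2.38 to -1.94). With only the 4 lesional libraries in the edgeR fit, neither passed (FDR = 0.117 for Tnc and 0.122 for Spp1). The log2 fold change itself stayed between -2.38 and -1.94 for Tnc and between -1.31 and -1.12 for Spp1 over all 19 alternatives, as the plot by setting shows.

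**Figure D3:**
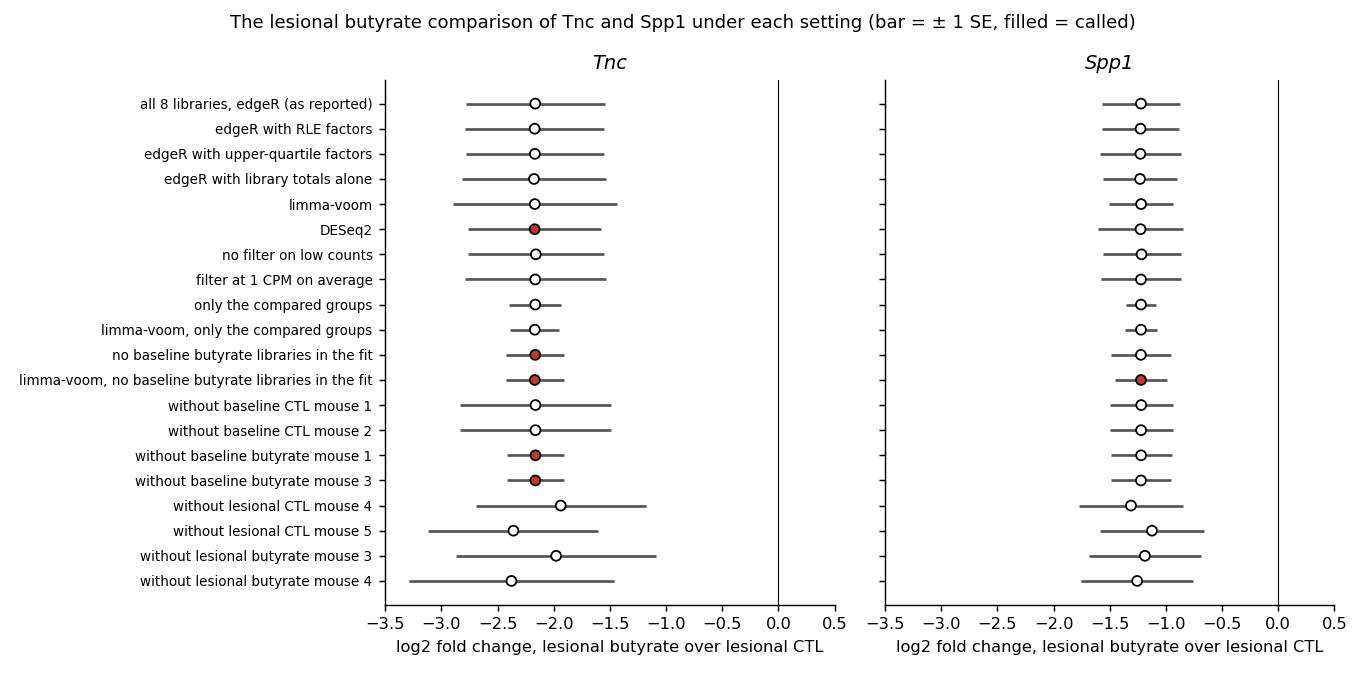
Log2 fold change of Tnc (left) and Spp1 (right) in lesional butyrate over lesional CTL skin for the reported fit and 19 alternatives on the vertical axis, with bars of 1 SE and filled points where the gene was called. All points lie below 0, and the filled points are the DESeq2 fit and fits that leave out 1 or both baseline butyrate mice.

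The other 5 genes were close to each other in lesional skin with and without butyrate, or varied widely between mice. Thbs1 was at 277 and 224 CPM in lesional butyrate mice, just under the 281 and 346 CPM of lesional CTL mice (log2 fold change -0.32, interval -0.995 to 0.35, edgeR FDR = 1). Fn1 was at 107 and 419 CPM in lesional butyrate mice, a 3.90-fold range that overlapped the 332 and 751 CPM of lesional CTL mice (log2 fold change -1.04, interval -2.71 to 0.63). Leaving out lesional butyrate mouse 4 gave a log2 fold change of -2.33, and leaving out lesional CTL mouse 5 one of -0.33. Postn was at 944 and 1468 CPM, on both sides of the lesional CTL mice (log2 fold change -0.07, interval -0.82 to 0.67). Sparc was at 597 and 1194 CPM and also enclosed both lesional CTL mice (log2 fold change -0.22, interval -1.17 to 0.73). Tgfbi was at 251 and 346 CPM, under both lesional CTL mice (log2 fold change -0.27, interval -1.71 to 1.17). In all, 4 of the 7 genes were lower without overlap, against 44.9% of all tested genes without overlap in either direction.

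HDM exposure in butyrate-treated mice gave 0 of 7 calls by edgeR, among 0.35% of all genes, and 0 of 7 by DESeq2, among 4.6%, and by limma-voom. By edgeR 0 of 7 had an unadjusted p under 0.05, against 13.1% of all genes. Tnc was at 34.3 and 132.5 CPM in baseline butyrate mice, and the higher value was that of mouse 3. Against these the lesional butyrate mice were 2.14-fold higher (log2 fold change 1.10, interval -0.36 to 2.56, FDR = 0.497), and without baseline butyrate mouse 3 the log2 fold change was 2.40 and was called (FDR = 0.0342, among 5.94% of genes). Spp1 was at 7.61 and 4.72 CPM in baseline butyrate mice, below the 10.7 and 11.2 CPM of lesional butyrate mice (log2 fold change 0.82, interval -0.03 to 1.67, edgeR unadjusted p = 0.0569). The unadjusted p of Spp1 was 0.0462 by limma-voom and 0.0325 by DESeq2. Its edgeR log2 fold change was 0.53 without baseline butyrate mouse 3 and 1.19 without mouse 1. Without baseline butyrate mouse 1, which leaves mouse 3 as the lone baseline butyrate library and assumes that it varies like the other groups, Spp1 and Tgfbi were called among 19.1% of genes. Only Spp1 and Tnc of the 7 did not overlap between baseline and lesional butyrate mice, against 32.4% of all genes.

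Set against baseline CTL mice instead, lesional butyrate skin had 4.62-fold more Tnc (log2 fold change 2.21, SE 0.62, interval 0.70 to 3.72, unadjusted p = 0.0114, edgeR FDR = 0.243). No member was called by edgeR, among 0.383% of all genes, and 1 of 7 had an unadjusted p under 0.05, against 14.6% of all genes. DESeq2 called Tnc among 3.76% of genes, limma-voom on 8 libraries did not, and edgeR without the baseline butyrate libraries did among 8.43% of genes. Spp1 in lesional butyrate mice overlapped the range of baseline CTL mice (10.7 and 11.2 against 5.89 and 10.9 CPM, log2 fold change 0.39, interval -0.46 to 1.23). Of the 7 genes, 4 did not overlap in this comparison (Tnc and Thbs1 higher, Sparc and Tgfbi lower), against 63.2% of all genes. This comparison shares samples with the others and is no independent evidence of them.

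In baseline skin butyrate gave 0 of 7 calls by edgeR and limma-voom, among 0% of all genes by edgeR, and 0 of 7 by DESeq2, among 0.383%. By edgeR 0 of 7 had an unadjusted p under 0.05, against 3.49% of all genes. No gene of the 7 was free of overlap between the groups, against 29.8% of all genes. Tgfbi was at 404 and 94.0 CPM in baseline butyrate mice, and the low value again belonged to mouse 3 (log2 fold change -0.66, interval -2.10 to 0.79). Thbs1 was at 171 and 252 CPM, Fn1 at 352 and 203 CPM, Sparc at 1533 and 924 CPM and Postn at 1059 and 725 CPM. Mouse 3 was thus the lower for Spp1, Postn, Fn1, Sparc and Tgfbi and the higher for Tnc and Thbs1. With mouse 3 as the lone baseline butyrate library, Tnc was called higher (log2 fold change 1.78, FDR = 0.00643) and Tgfbi lower (-2.05, FDR = 0.00175), but so were 24.1% of all genes. Without mouse 3 the log2 fold changes were -0.19 for Tnc and 0.03 for Tgfbi.

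The difference between the butyrate effects in lesional and baseline skin was -3.28 for Tnc on the log2 scale (SE 0.86, interval -5.37 to -1.18, unadjusted p = 0.00838, FDR = 0.84), which ranked 72 of 15163 genes by p. No member was called by edgeR, as for all genes (0%), and Tnc was the 1 member at an unadjusted p under 0.05, against 4.64% of all genes. DESeq2 called Tnc among 0.244% of genes and limma-voom did not. The value rested in part on baseline butyrate mouse 3: without it the difference for Tnc was -1.97, and with it as the lone baseline butyrate library it was -3.94 and was called together with Tgfbi, among 20.9% of genes. For the other 6 genes the difference was between -1.25 (Fn1) and 0.39 (Tgfbi), and every interval held 0.

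Postn, Fn1, Sparc and Tgfbi were lowest in the libraries in which markers of several dermal cell types were low. The summed level of 11 fibroblast markers, none of them at 0 in any library, was 6773 and 8108 CPM in baseline CTL mice, 8996 and 3925 CPM in baseline butyrate mice, 7034 and 7900 CPM in lesional CTL mice, and 3835 and 9347 CPM in lesional butyrate mice. The low libraries were baseline butyrate mouse 3 and lesional butyrate mouse 3, and these were also the lowest 2 of 8 for Postn, Fn1, Sparc and Tgfbi. No fibroblast marker was called in any of the 6 comparisons, and the same 2 libraries were also the lowest 2 of 8 for the summed endothelial (149.8 and 254 CPM), macrophage and dendritic cell (388 and 828 CPM), skeletal muscle (10430 and 14040 CPM) and platelet markers (19.0 and 22.8 CPM). The part of any of these cell types in the levels of the 4 genes was not tested. Relative to the fibroblast sum of the same library, Sparc was at 17.1% and 18.9% in baseline CTL, 17.0% and 23.5% in baseline butyrate, 13.9% and 14.0% in lesional CTL and 12.8% and 15.6% in lesional butyrate mice. Tnc relative to the same sum was at 0.687% and 0.394% in baseline CTL, 0.382% and 3.38% in baseline butyrate, 13.2% and 8.79% in lesional CTL and 4.08% and 2.20% in lesional butyrate mice. The lesional CTL mice were thus highest on this scale too, and both lesional butyrate mice lay between them and the baseline CTL mice. Baseline butyrate mouse 3 (3.38%) overlapped the lesional butyrate mice on this scale.

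**Figure D4:**
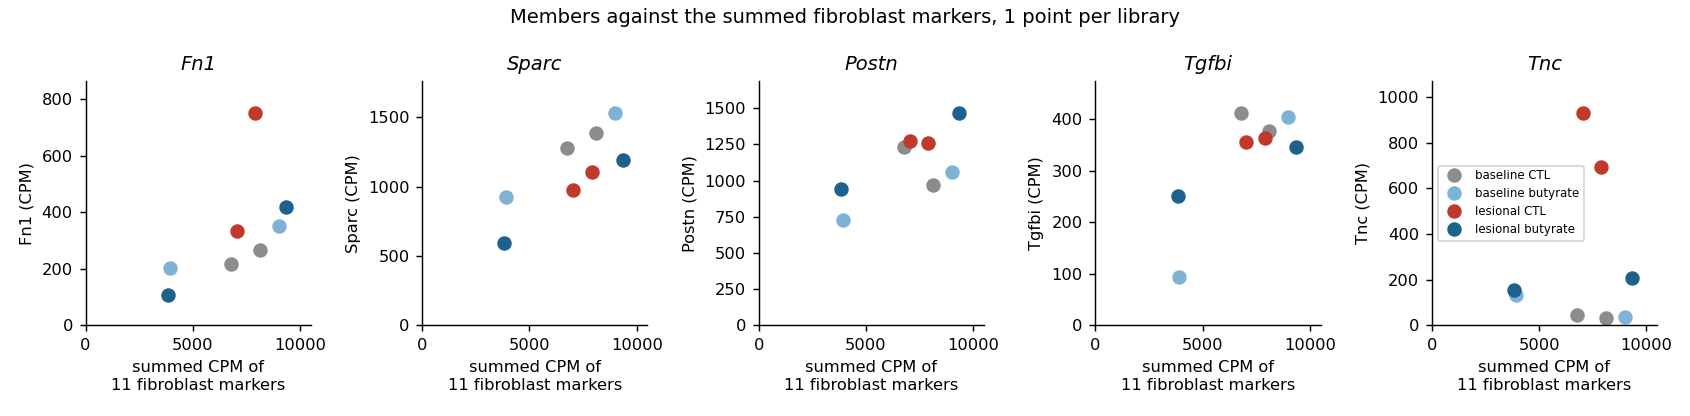
CPM of Fn1, Sparc, Postn, Tgfbi and Tnc (vertical axes) against the summed CPM of 11 fibroblast markers (horizontal axes), 1 point for each of the 8 libraries, coloured by group. The 2 libraries with 3925 and 3835 CPM of fibroblast markers are the lowest for Fn1, Sparc, Postn and Tgfbi, whereas Tnc is set apart by the 2 lesional CTL mice at 694 and 930.5 CPM.

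Summed markers of inflammatory cells and of injured epidermis were higher in the lesional CTL mice, as Tnc and Spp1 were. All 7 tested neutrophil markers were called higher in lesional CTL mice, against 3.58% of all genes called in either direction. Neutrophil sums were 13.9 and 17.3 CPM in baseline CTL and 22.4 and 16.7 CPM in baseline butyrate mice. In lesional skin they were 2657 and 1656 CPM in CTL and 773 and 349 CPM in butyrate mice. The 6 injury-induced keratinocyte markers summed to 1190 and 1043 CPM in baseline CTL, 9255 and 6151 CPM in lesional CTL and 5348 and 3810 CPM in lesional butyrate mice. They were also higher in baseline butyrate mouse 3 (3299 CPM) than in mouse 1 (1064 CPM), as Tnc was, whereas Spp1 was at its lowest of all 8 libraries (4.72 CPM) in mouse 3. This mouse had no allergen, and its library was the one with 12530 CPM of hair follicle keratins. Which cells gave its injury-induced markers was not tested. Of 7 tested T cell markers, 3 (Cd4, Cd5 and Lck) were called higher in lesional CTL mice. All 7 were higher without overlap, but 75.2% of all genes did not overlap in either direction. T cell marker sums were 24.61 and 24.64 CPM in baseline CTL and 31.4 and 11.6 CPM in baseline butyrate mice. In lesional skin they were 92.6 and 50.5 CPM in CTL and 57.2 and 48.0 CPM in butyrate mice. Of 11 measured macrophage and dendritic cell markers, none at 0, 1 was called higher in lesional CTL mice. Log2 fold changes over baseline CTL were positive for 9 and negative for 2, the lowest at -0.91. By edgeR 1 was higher and 1 lower at an unadjusted p under 0.05, against 19.7% of all genes. The sum of the 11 markers was 866 and 1129 CPM in baseline CTL and 1509 and 388 CPM in baseline butyrate mice. In lesional skin it was 1551 and 1812 CPM in CTL and 828 and 1496 CPM in butyrate mice. Baseline butyrate mouse 1, without allergen, was thus above both lesional butyrate mice. Relative to the macrophage and dendritic cell sum, Spp1 was at 0.680% and 0.964% in baseline CTL and 0.504% and 1.22% in baseline butyrate mice. In lesional skin Spp1 was at 1.54% and 1.5% in CTL and 1.29% and 0.749% in butyrate mice. Baseline butyrate mouse 3 (1.22%) overlapped the lesional butyrate mice on this scale. The part of these cell types in the levels of Tnc and Spp1 was not tested.

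Other matricellular and matrix glycoproteins varied in both directions with HDM exposure in CTL mice. Of 25 tested genes of such a list, with thrombospondins, fibulins, CCN proteins and others, 1 was called lower and 0 higher in lesional CTL mice, and the list's median was -0.002 on the log2 scale against -0.015 over all genes. Of the 25, 12 were higher and 7 lower without overlap, against 75.2% of all genes without overlap in either direction. By edgeR 3 were higher and 3 lower at an unadjusted p under 0.05, against 19.7% of all genes in either direction. Both counts of the list were near these shares. In butyrate-treated mice 17 of the 25 had positive log2 fold changes, with a median of 0.24 against -0.045 over all genes, and 0 were called. The called gene was Ctgf, a CCN protein induced by TGF-beta and by mechanical load, at 239 and 197 CPM in baseline CTL and 44.3 and 71.6 CPM in lesional CTL mice (log2 fold change -1.91, edgeR FDR = 0.0696). Ctgf was at 61.5 and 56.1 CPM in lesional butyrate mice, between the values of the lesional CTL mice. In lesional butyrate over lesional CTL skin 0 of 25 were called. By edgeR 1 had an unadjusted p under 0.05, against 4.84% of all genes. It was Angptl4, with 30.6 and 54.7 CPM against 79.4 and 70.1 CPM.

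Among 18 integrins and other cell-surface receptors listed beside the 7 genes, Cd44 and Itga8 were called in lesional over baseline CTL skin, against 3.58% of all genes. Cd44, a receptor for osteopontin and hyaluronan, was at 370 and 282.5 CPM in baseline CTL and 884 and 672 CPM in lesional CTL mice (log2 fold change 1.25, edgeR FDR = 0.0643). It was at 707 and 565 CPM in lesional butyrate mice, still above every baseline mouse. Itga8, the alpha chain of an integrin that binds fibronectin, tenascin C and osteopontin, was at 11.2 and 9.66 CPM in baseline CTL and fell to 4.91 and 5.08 CPM in lesional CTL mice (log2 fold change -1.06, FDR = 0.0803). In lesional butyrate mice Itga8 was at 9.11 and 10.6 CPM, with an unadjusted p of 0.00431 and an FDR of 0.737 against lesional CTL. The median log2 fold change of the 18 receptors was 0.35 in lesional over baseline CTL and -0.27 in lesional butyrate over lesional CTL skin. In the latter edgeR called 0, and 4 had an unadjusted p under 0.05 (1 higher and 3 lower), against 4.84% of all genes.

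Of the 18 genes of the TGF-beta pathway reported here, edgeR called 0 in lesional over baseline CTL skin, and 5 had an unadjusted p under 0.05 (2 higher and 3 lower), against 19.7% of all genes. Tgfb1, the ligand, was at 29.5 and 34.0 CPM in baseline CTL, 60.8 and 54.2 CPM in lesional CTL and 38.3 and 45.1 CPM in lesional butyrate mice. It passed the FDR threshold but not the fold threshold in lesional over baseline CTL skin (log2 fold change 0.86, FDR = 0.0555). Ltbp4, which holds latent TGF-beta in the matrix, was at 182 and 206 CPM in baseline CTL and 94.1 and 120 CPM in lesional CTL mice and also missed the fold threshold (log2 fold change -0.86, FDR = 0.0986). Lrrc32, a surface protein that anchors latent TGF-beta on regulatory T cells, was at 17.2 and 18.2 CPM in baseline CTL, 73.4 and 54.1 CPM in lesional CTL and 42.1 and 44.5 CPM in lesional butyrate mice, without passing the FDR threshold in lesional over baseline CTL skin (log2 fold change 1.85, FDR = 0.113). These 18 genes had a median log2 fold change of -0.08 in lesional over baseline CTL skin and -0.07 in lesional butyrate over lesional CTL skin. In the latter edgeR called 0 of 18, and 3 had an unadjusted p under 0.05 (1 higher and 2 lower), against 4.84% of all genes.

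Type 2 cytokine genes, which act upstream of periostin, gave 4 calls of 8 tested genes in lesional over baseline CTL skin (Il13, Il4ra, Il13ra2 and Il33). Of all genes, 3.58% were called. Il13 was at 0.111 and 0 CPM in baseline CTL and at 3.63 and 1.62 CPM in lesional CTL mice. Both baseline CTL values of Il13 were under the floor of 3 counts (0.167 and 0.166 CPM), so the size of its rise is uncertain. Il4ra, a shared receptor chain for interleukins 4 and 13, was at 59.4 and 79.7 CPM in baseline CTL, 272.5 and 262 CPM in lesional CTL and 104 and 91.1 CPM in lesional butyrate mice. Il13ra2, the decoy receptor, was at 3.06 and 2.33 CPM in baseline CTL, 19.3 and 15.1 CPM in lesional CTL and 17.9 and 14.3 CPM in lesional butyrate mice. Against lesional CTL, 0 of 8 were called in lesional butyrate mice. By edgeR 2 had an unadjusted p under 0.05 (Il4ra and Il4, both lower), against 4.84% of all genes. Beside these, Postn ranged over 944 to 1468 CPM in the 4 lesional mice and 725 to 1234 CPM in the 4 baseline mice.

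**Figure D5:**
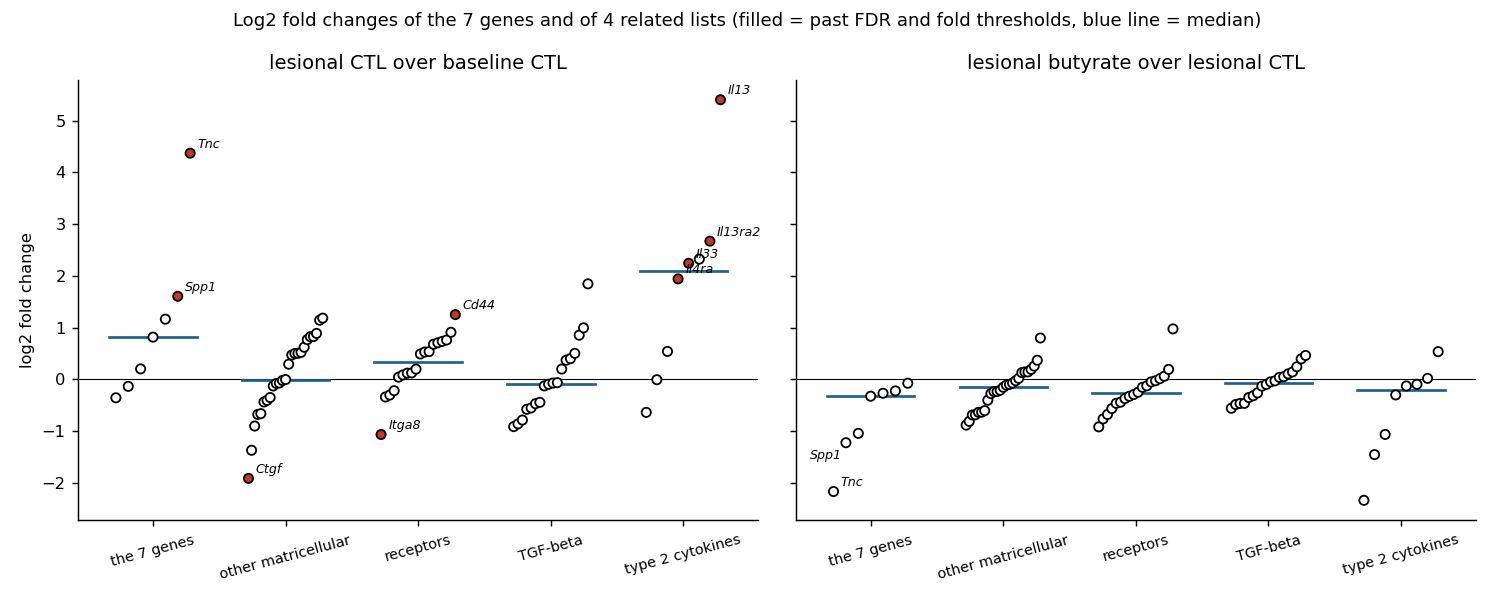
Log2 fold changes (vertical axis) of the 7 genes and the tested genes of 4 related lists (horizontal axis) in lesional over baseline CTL skin (left) and lesional butyrate over lesional CTL skin (right), 1 point per gene, filled where called, with a blue line at each median. Named points on the left are the called genes, such as Tnc at 4.37, Cd44 at 1.25 and Ctgf at -1.91, and no point on the right is filled.

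The genes most like each member were found by Pearson correlation of log2 CPM over the 8 libraries, among 12324 genes of at least 5 CPM on average. The libraries share the 4 groups and baseline butyrate mouse 3, so these values are descriptions. Tnc was most like Picalm (r = 0.997), a clathrin assembly protein, and Saa3 (r = 0.986), an acute-phase serum amyloid. Spp1 was most like Bend4 and Rras2 (both r = 0.979). Fn1 was most like Adam9 (r = 0.99), a membrane metalloproteinase, and Fstl1 (r = 0.985), a secreted glycoprotein of mesenchymal cells. Tgfbi was most like Rnf135 (r = 0.997) and Thbs2 (r = 0.996), another thrombospondin. Sparc was most like St3gal2 (r = 0.988) and Reep1 (r = 0.985), and Postn like Cnih1 (r = 0.951) and Cd93 (r = 0.938). Thbs1 was most like BC027231 (r = 0.958) and Tatdn2 (r = 0.953).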

How the data were processed

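RNA from the skin of 8 mice, 2 in each of 4 groups, was sequenced by the study. The authors used STAR 2.5.2 (GRCm38) for alignment and featureCounts for counting, and deposited raw, unnormalized counts of protein-coding genes. Groups were taken from the labels, in which SCFA stands for butyrate, vehicle for CTL and atopic dermatitis for lesional skin. The labels do not state that libraries of a group come from separate experiments, and p-values measure only the spread between these libraries.

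CPM values were calculated from library sizes scaled by TMM factors. Log2 fold changes, SEs and FDRs are from edgeR's quasi-likelihood test (edgeR 4.0.16, R 4.3.3, robust, all 8 libraries, 4 residual degrees of freedom from the groups, prior count 0.125) after filterByExpr with a minimum count of 10, with Benjamini-Hochberg adjustment over 15163 genes, and were tested on simulated data. Genes were called at an FDR below 0.1 and a fold-change above 2. A count of 3 was taken as the floor. Results were recomputed with DESeq2 1.42.0 and limma-voom (limma 3.58.1), under other scalings, filters and thresholds, with other sets of libraries, and leaving out each mouse. Fits without the baseline butyrate libraries by limma-voom, and by limma-voom on the 4 lesional libraries, were added after seeing the data. Positions and exonic lengths are from GENCODE vM21 (GRCm38), and upstream sequences from RefSeq.

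The 7 genes and the gene lists were chosen with earlier results of these data known. The rule for named genes was every member, at most 3 genes of each related list by smallest p in a comparison, and the 2 genes most like each member. The type 2 list departs from it, since all 4 of its called genes are named. A gene of the TGF-beta list is not reported here and was left out of the counts and medians of that list.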

Additional observations from a re-analysis of the deposited data

How the results depend on the processing

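Of the refitted log2 fold changes of the 7 genes, 658 kept their direction and side of the threshold, 21 passed it, 12 lost it and 23 changed sign. No paired analysis was possible because no compared groups have more than 1 replicate number in common. In lesional butyrate over lesional CTL skin, 0 members were called as reported, among 0% of all genes, and 1 with DESeq2, among 0.818%. Without the baseline butyrate libraries edgeR called 1, among 1.25% of genes, and limma-voom called 2, among 1.31%. HDM exposure in CTL mice gave 2 calls, among 3.58% of all genes, and 1 at an FDR of 0.05, among 1.62%. With only the compared groups in the fit it gave 3, among 12.9% of genes. HDM exposure in butyrate-treated mice and butyrate in baseline skin gave calls only with 1 mouse left out, as given above with their shares. For the difference of the butyrate effects DESeq2 gave 1 call, among 0.244% of genes. Lesional butyrate over baseline CTL gave 1 call with DESeq2, among 3.76% of genes, and 1 with only the compared groups, among 7.51%. Without the baseline butyrate libraries it gave 1 by edgeR, among 8.43%, and 1 by limma-voom, among 8.53%. In each comparison the calls also varied with the mouse left out.

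Signs changed when 1 mouse was left out in these ranges of log2 fold changes. In lesional butyrate over lesional CTL skin they were -0.43 to 0.21 for Postn and -0.81 to 0.19 for Sparc. For HDM exposure in butyrate-treated mice they were -0.029 to 0.55 for Thbs1, -1.36 to 0.59 for Fn1 and -0.43 to 1.65 for Tgfbi. For butyrate in baseline skin they were -0.81 to 0.073 for Spp1, -0.19 to 1.78 for Tnc, -0.057 to 0.54 for Thbs1, -0.23 to 0.54 for Fn1, -0.51 to 0.20 for Sparc and -2.05 to 0.034 for Tgfbi. For the difference of the butyrate effects they were -0.13 to 0.51 for Postn, -0.69 to 0.31 for Sparc and -0.30 to 1.78 for Tgfbi. For lesional butyrate over baseline CTL they were -0.21 to 0.42 for Postn and -1.16 to 0.80 for Fn1, and Fn1 was -0.184 by limma-voom and -0.186 by limma-voom without the baseline butyrate libraries. None of the values of changed sign passed the threshold, and the cause was not tested. With 2 mice per group and a common biological coefficient of variation of 0.276, the number of mice and not the depth limits precision, since each of the 7 genes had at least 101 counts in every library.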
